A study of Homo sapiens with 21 samples.

Results

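A pair of herbicide mixtures was set side by side in cultured human liver cells: AMPA with 2,4-D against glyphosate with 2,4-D. Genes entered the comparison when they were listed in the tables of both mixtures and had an FPKM (an expression level corrected for gene length and for library size) of 1 or more in at least 3 of the 6 mixture libraries. This rule kept 12048 of the 25396 genes listed for both mixtures and of the 28808 listed anywhere in the series, and 10113 of the 12048 were protein coding. The cells were C3A, a clone selected from the HepG2 hepatoma line and labelled wild type. They were exposed for 48 h to 34 µM AMPA (3.7 µg/mL) with 2.5 µM 2,4-D (0.56 µg/mL), or to 5.6 µM glyphosate (0.95 µg/mL) with the same 2.5 µM 2,4-D. Both mixtures thus shared the 2,4-D, and each concentration was chosen, per the labels, to lie 1000-fold below that compound's own half-maximal inhibitory concentration. The molar concentrations of AMPA and glyphosate differ, so in every comparison below the compound and its concentration cannot be told apart. Each mixture had 3 libraries, as did AMPA alone at 34 µM, glyphosate alone at 5.6 µM and 2,4-D alone at 2.5 µM, and 6 unexposed libraries completed the 21 of the series. No label says that libraries of a group came from separate cultures, so the p-values measure the spread between libraries, which may be technical.

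Glyphosate, N-(phosphonomethyl)glycine, is a herbicide that blocks the plant and microbial enzyme EPSP synthase, which animal cells lack. AMPA, aminomethylphosphonic acid, is its main breakdown product in soil and water; it keeps the phosphonate and the amine and lacks the carboxymethyl group on the nitrogen. 2,4-D (2,4-dichlorophenoxyacetic acid) is a synthetic auxin that is often sprayed together with glyphosate. Hepatocytes secrete most plasma proteins and lipoproteins, so they carry a large load of newly made protein through the endoplasmic reticulum. When unfolded protein collects there, the unfolded protein response raises chaperones, disulphide isomerases and degradation factors through the sensors IRE1, PERK and ATF6 and the transcription factors they release.

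Recovered from the FPKM values and gene lengths, the AMPA+2,4-D libraries held 15.29 M to 18.52 M reads on genes and the glyphosate+2,4-D libraries 15.35 M to 16.33 M. All 10 hepatocyte markers examined were at 1 FPKM or more in both mixtures, with a summed level of 10259 to 10925 FPKM in AMPA+2,4-D and 10957 to 11715 FPKM in glyphosate+2,4-D. Of the fibroblast markers only PDGFRB reached 1 FPKM, endothelial and macrophage markers summed to at most 0.150 FPKM in any mixture library, and the part of other cell types in the results was not tested. Replicates 1 and 3 of AMPA+2,4-D stood apart from the other 13 exposed libraries. Their scores on the first principal component, which held 24.4% of the variance, were 23.1 and 23.9, while the third AMPA+2,4-D library (replicate 2) had −2.46 and the others −8.35 to 1.26. In these same libraries a gene's deviation fell with its GC content: across 12040 genes, which are not independent replicates, Spearman's rho was −0.514 and −0.513, against −0.028 in replicate 2. Replicate 2 was closer to each glyphosate+2,4-D library (Pearson correlation 0.986 to 0.987) than to replicates 1 and 3 of its own mixture (0.980 and 0.979). Beside the results below stand values of replicate 2 alone for the main genes and lists, and the outcome of a fit in which a trend of each library with gene length and GC content was removed; whether the shift of the 2 libraries comes from the exposure or from library preparation was not tested.

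**Figure D1:**
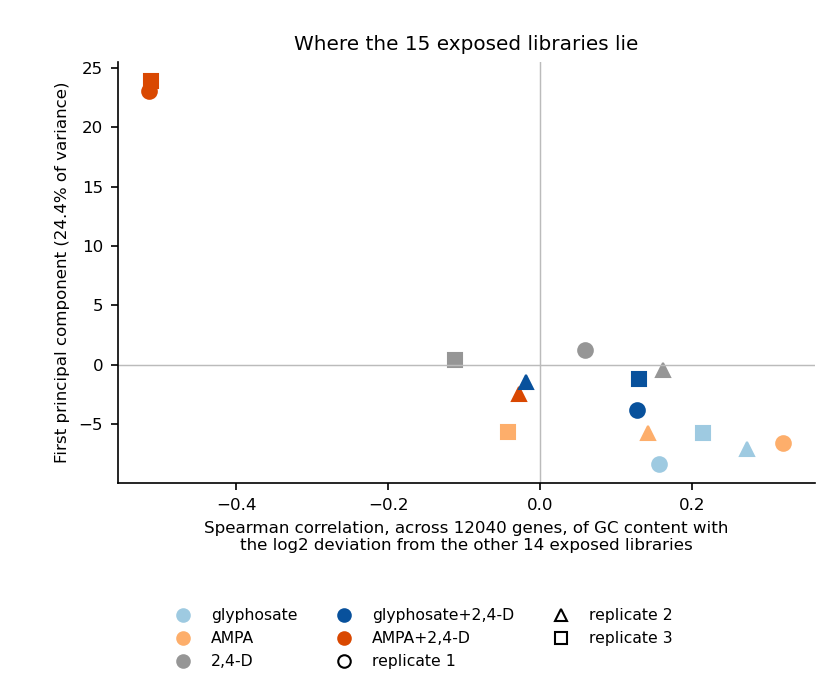
Each point is 1 of the 15 exposed libraries, coloured by exposure and shaped by replicate. The x axis is Spearman's rho across 12040 genes between GC content and the library's log2 deviation from the other exposed libraries, and the y axis is its score on the first principal component. AMPA+2,4-D replicates 1 and 3 lie together near −0.51 and 23 to 24, and replicate 2 lies among the other libraries.

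Between the mixtures, 516 of the 12048 genes (4.28%) passed limma at an adjusted p under 0.05: 230 (1.91%) were higher and 286 (2.37%) lower with AMPA+2,4-D. Throughout, rose and fell describe AMPA+2,4-D relative to glyphosate+2,4-D, and no change from unexposed cells was tested. The differences were small. Their median size among the 516 was 0.231 on the log2(FPKM + 1) scale, a scale that understates the change of genes near 1 FPKM, with a range of 0.118 to 2.30. In 514 of the 516 the 3 libraries of one mixture did not overlap the 3 of the other, as in 2997 of all genes tested (24.9%). Genes that rose with AMPA+2,4-D had a median length of 6565.5 bases and a GC content of 42.6%, those that fell 3146 bases and 58.6%, and all genes tested 4407 bases and 49.2%. No gene passed in limma when both libraries that stood apart were left out, which leaves 1 library of AMPA+2,4-D, assumed to vary like the other groups (1292 had an unadjusted p under 0.05), and none when the 6 mixture libraries were fitted alone (2188 unadjusted, and 2728 in the fit over 15 libraries). Leaving out 1 AMPA+2,4-D library gave 91 genes without replicate 1, 1294 without replicate 2 and 58 without replicate 3, and leaving out 1 glyphosate+2,4-D library gave 89 to 213. With the length and GC trend removed 163 genes passed, 126 of them among the 516. Scaling to TPM turned the split of calls from 44.6% higher to 54.6% higher, over 315 genes.

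As a list, genes of the unfolded protein response were higher with AMPA+2,4-D. Of 23 listed genes 7 rose and none fell (background 1.91% higher), 22 had a positive difference, and the list's median log2 difference was 0.10 against 0.00 over all genes. The 7 were the chaperones DNAJB11, HSP90B1 (GRP94), DNAJC3 and CANX (calnexin), the disulphide isomerases PDIA3 and PDIA6, and SEL1L, which holds together the ubiquitin ligase that clears misfolded proteins from the endoplasmic reticulum. In 12 of the 23 the AMPA+2,4-D libraries all lay above the glyphosate+2,4-D libraries (12.7% of all genes did so). Replicate 2 taken alone had a list median of 0.10 as well, and exceeded all 3 glyphosate+2,4-D libraries in 16 of the 23 genes, against 27.7% of all genes. A separate list of 27 ATF4 and amino acid response genes was not higher. None of its members rose, 1 fell (PPP1R15A, against 2.37% of all genes), 17 were negative and the median was −0.03.

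A DNA element named ERSE, through which ATF6 and XBP1 act together with NF-Y, is a textbook feature of such promoters. It was searched as CCAAT and CCACG separated by 9 bases of any kind. The RefSeq promoters of 3 genes that rose are printed to show which of them hold it: 250 bases before each start site, build GRCh38.p14, plus strand for all 3, with any match on either strand in capitals. HSP90B1 spans chr12:103930160-103930409, CANX chr5:179698679-179698928 and DNAJB11 chr3:186570470-186570719.
HSP90B1: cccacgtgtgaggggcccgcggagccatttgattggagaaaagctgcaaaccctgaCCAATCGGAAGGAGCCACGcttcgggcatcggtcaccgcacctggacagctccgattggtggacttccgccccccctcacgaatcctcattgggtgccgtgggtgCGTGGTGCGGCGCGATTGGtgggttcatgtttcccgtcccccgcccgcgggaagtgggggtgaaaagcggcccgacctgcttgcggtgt
CANX: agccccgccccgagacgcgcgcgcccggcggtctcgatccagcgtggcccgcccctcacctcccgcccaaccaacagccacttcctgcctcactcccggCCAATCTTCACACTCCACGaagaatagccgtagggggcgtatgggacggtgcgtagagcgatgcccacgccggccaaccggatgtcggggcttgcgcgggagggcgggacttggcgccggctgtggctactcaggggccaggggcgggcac
DNAJB11: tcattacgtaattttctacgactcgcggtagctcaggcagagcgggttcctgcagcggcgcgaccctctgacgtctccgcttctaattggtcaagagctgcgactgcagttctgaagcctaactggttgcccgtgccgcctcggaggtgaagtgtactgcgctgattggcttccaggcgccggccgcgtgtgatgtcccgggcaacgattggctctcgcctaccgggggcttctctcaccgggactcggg

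HSP90B1 holds the element at 2 places, once on each strand, ending 176 and 71 bases before the start site. CANX holds it at 1, ending 133 bases before the start site, and the DNAJB11 window has no exact match. Among the 22 list members with an entry in the RefSeq table, 6 (27.3%) held the element, and so did 2 of the 6 that rose (33.3%), against 22 of all 27305 promoters (0.0806%) and 13 of the 8347 promoters of genes tested (0.156%). The shorter element ERSE-II, searched as ATTGG and CCACG separated by 1 base, was found in 3 of the 22 (13.6%) and in none of the 6 that rose. PDIA3 has no entry in the table. These matches describe the windows, and no binding was measured.

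DNAJB11, a co-chaperone of BiP (GRCh38 chr3:186567403-186585800), measured 49.6, 47.9 and 50.5 FPKM in AMPA+2,4-D and 42.7, 41.7 and 41.2 FPKM in glyphosate+2,4-D. Every AMPA+2,4-D library was above every other exposed library, with 2,4-D alone at 43.5 ± 0.913 FPKM (SD, n = 3). Its log2 difference between the mixtures was 0.23 (SE 0.030, limma adjusted p = 0.00487), and it was 0.19 for replicate 2 alone. HSP90B1, the endoplasmic reticulum member of the HSP90 family (chr12:103930107-103953645), measured 1598, 1424 and 1496 FPKM against 1288, 1313 and 1304 FPKM. The groups did not overlap, and replicate 2, the lowest of the AMPA+2,4-D libraries, still exceeded every library of the other exposed groups. The means of unexposed cells lay within the range of the AMPA+2,4-D libraries, at 1488.5 ± 38.0 FPKM of HSP90B1 and 49.4 ± 0.937 FPKM of DNAJB11 (SD, n = 6). For HSP90B1 the log2 difference was 0.21 (SE 0.041, limma adjusted p = 0.0191), and 0.13 for replicate 2 alone. PDIA3, a glycoprotein disulphide isomerase, stood at 310, 288 and 305 FPKM against 265, 278 and 259 FPKM, again without overlap (limma adjusted p = 0.0234). Calnexin (CANX), which retains glycoproteins until they fold, measured 362, 342 and 355 FPKM against 318, 323 and 304 FPKM (limma adjusted p = 0.0256). BiP itself (HSPA5), the HSP70 chaperone of the compartment, measured 1438, 1393 and 1382 FPKM against 1299, 1287 and 1318 FPKM. Its libraries did not overlap, but its log2 difference of 0.11 did not pass (limma adjusted p = 0.131). XBP1 had a log2 difference of 0.13 (limma adjusted p = 0.134), and SDF2L1 was the only member with a negative value, −0.08.

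Leaving out AMPA+2,4-D replicate 1 or replicate 3 reduced the 7 calls of the list to 1, and the removal of the length and GC trend to 2 (DNAJB11 and PDIA3), while the list's median stayed between 0.08 and 0.10 in those fits. Without 2,4-D, where AMPA was compared with glyphosate, the median of the same 23 genes was 0.02 and none passed. In unexposed libraries the list's median, relative to the gene means over the exposed libraries, was 0.19 to 0.29. The AMPA+2,4-D libraries were lower on that scale, at 0.067 to 0.094, so the rise over glyphosate+2,4-D is not a rise over unexposed cells.

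**Figure D2:**
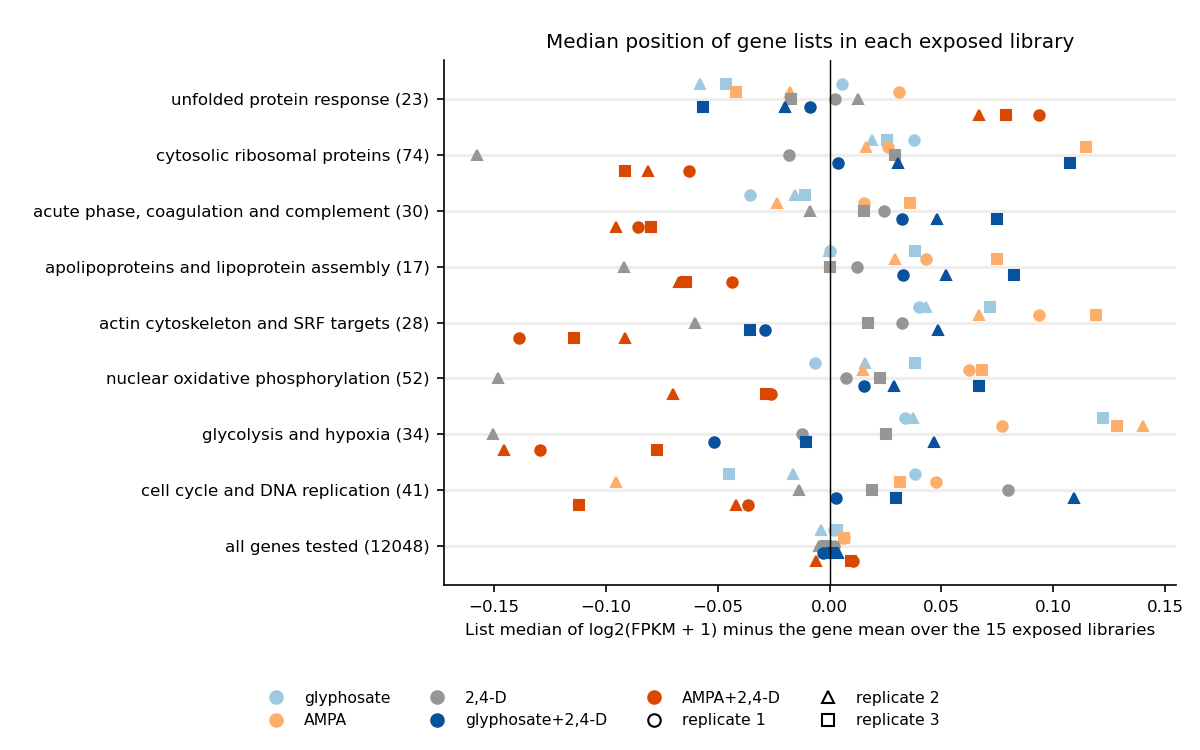
For 8 gene lists and for all genes tested, each point is the list's median, in 1 exposed library, of log2(FPKM + 1) minus the gene's mean over the 15 exposed libraries (the number of genes is in brackets). In each of the 8 lists the 3 AMPA+2,4-D points do not overlap the 3 glyphosate+2,4-D points, higher for the unfolded protein response and lower for the other 7. Replicate 2 of 2,4-D alone lies as low as the AMPA+2,4-D libraries for ribosomal proteins, apolipoproteins, oxidative phosphorylation and glycolysis.

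Cytosolic ribosomal protein genes, whose products make up the protein part of the ribosome, were lower with AMPA+2,4-D. None of the 74 rose, 13 fell (background 2.37% lower), 66 had a negative difference and the list's median was −0.13. In 44 the AMPA+2,4-D libraries all lay below the glyphosate+2,4-D libraries (12.2% of all genes did so), and replicate 2 alone lay below all 3 of them in 65 (30.1% of all genes). Ribosomal protein genes together took 9.24, 9.47 and 9.18% of the summed FPKM in the AMPA+2,4-D libraries and 9.99 to 10.2% in the glyphosate+2,4-D libraries. RPSA, a component of the small subunit (chr3:39406689-39412542), measured 250, 266 and 250 FPKM against 294, 302 and 301 FPKM, and 277 ± 5.96 FPKM (SD, n = 3) with 2,4-D alone. The mixtures lay on either side of 2,4-D alone without overlap, and the log2 difference between them was −0.23 (SE 0.031, limma adjusted p = 0.00508), or −0.17 for replicate 2. RPLP0, which forms the base of the ribosomal stalk, stood at 674, 691 and 665 FPKM against 762, 811 and 802 FPKM. Its groups were also separate, with a log2 difference of −0.23 (SE 0.037, limma adjusted p = 0.0106). RPS28 had one of the larger differences, −0.39 (limma adjusted p = 0.018), from 55.2, 67.4 and 50.8 FPKM against 77.6, 74.4 and 74.1 FPKM, and replicate 2 was nearest to the other mixture. Ribosomal protein genes have many processed pseudogenes, which can share their reads, so single members are less certain than genes with unique sequence. With the trend removed 5 of the 13 passed and the median was −0.11. Without AMPA+2,4-D replicate 1 the count was 2, and without replicate 3 it was 1. The list's median in 2,4-D alone replicate 2 was as low as in the AMPA+2,4-D libraries, so a single library moved by as much within an exposure. Between AMPA and glyphosate without 2,4-D the median was 0.02.

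Genes of secreted liver proteins were lower as well. Of 30 acute phase, coagulation and complement genes 5 fell (2.37% of all genes did) and none rose, 25 were negative and the median was −0.12, and replicate 2 alone gave −0.17. Without AMPA+2,4-D replicate 1, or without replicate 3, 1 gene of the list passed. CFI, a protease that inactivates complement C3b, measured 2.21, 1.93 and 2.29 FPKM in AMPA+2,4-D and 3.29, 2.93 and 3.18 FPKM in glyphosate+2,4-D. No AMPA+2,4-D library came near the other mixture, and replicate 2 was the lowest (log2 difference −0.40, limma adjusted p = 0.0115). Prothrombin (F2), the precursor of thrombin, stood at 198, 203 and 198 FPKM against 222, 233 and 228 FPKM, and its groups were separate (limma adjusted p = 0.016). ORM1, an acute phase glycoprotein that shares sequence with ORM2, measured 108, 112 and 101 FPKM against 158, 127 and 132 FPKM (log2 difference −0.37, limma adjusted p = 0.035). TF (transferrin) and AMBP also fell, by 0.21 and 0.15 on the log2 scale. Albumin (ALB), the most abundant plasma protein, had 4154, 3982 and 3699 FPKM against 4132, 4390 and 4279 FPKM. Its groups overlapped and the log2 difference of −0.11 did not pass (limma adjusted p = 0.223). With the trend removed CFI and TF were the members of the 5 that passed.

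Among 17 apolipoprotein and lipoprotein assembly genes 3 fell (2.37% of all genes did) and 1 rose (1.91%), 15 were negative and the median was −0.12. Without AMPA+2,4-D replicate 1 the list had 2 that fell, without replicate 3 it had 1, and none rose in either. APOC3, an inhibitor of lipoprotein lipase carried on triglyceride-rich particles (chr11:116829706-116833072), had the clearest difference. It measured 109, 104 and 106 FPKM in AMPA+2,4-D and 145, 143 and 158 FPKM in glyphosate+2,4-D, and 126, 116 and 137 FPKM with 2,4-D alone. The AMPA+2,4-D libraries were the lowest of the 15 exposed ones. Between the mixtures the log2 difference of APOC3 was −0.49 (SE 0.055, limma adjusted p = 0.00393), and −0.52 for replicate 2 alone. Without 2,4-D it measured 134, 140 and 144 FPKM with AMPA and 134, 134 and 132 FPKM with glyphosate, with no separation of that size. PLTP, which transfers phospholipid between lipoproteins, stood at 12.1, 11.7 and 11.2 FPKM against 15.8, 14.8 and 13.5 FPKM (limma adjusted p = 0.0148). SCARB1, the receptor for high-density lipoprotein, fell by 0.19 on the log2 scale. APOB, the structural protein of very-low-density lipoprotein, went the other way, with 436, 396 and 419 FPKM against 365, 381 and 370 FPKM. Its groups did not overlap (log2 difference 0.16, limma adjusted p = 0.0348), and replicate 2 alone gave 0.09. With the length and GC trend removed APOC3 was the only one of the 4 that passed.

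Of 35 immediate early genes, which respond to growth factors and stress within minutes to hours, 5 fell (2.37% of all genes did) and none rose: CYR61, GADD45B, PPP1R15A, MAFF and JUNB. The rest of the list was mixed, with 22 negative members, a median of −0.07 that was 0.01 with the length and GC trend removed, and library medians that overlapped between the mixtures. CYR61, a secreted matrix protein that is also a YAP target (chr1:85580761-85583962), measured 29.01, 28.7 and 29.4 FPKM in AMPA+2,4-D and 37.7, 44.0 and 44.9 FPKM in glyphosate+2,4-D. With 2,4-D alone it lay between, at 35.4, 35.2 and 36.9 FPKM, and its log2 difference between the mixtures was −0.52 (SE 0.065, limma adjusted p = 0.00487). Replicate 2 alone gave −0.54. Unexposed cells had 7.33 ± 0.995 FPKM of CYR61 (SD, n = 6), below both mixtures. GADD45B, a stress sensor of the p38 and JNK pathways (chr19:2476122-2478259), measured 12.6, 13.7 and 11.6 FPKM against 16.96, 19.03 and 18.1 FPKM. The groups were separate (log2 difference −0.48, SE 0.064, limma adjusted p = 0.00487), and replicate 2 alone gave −0.37. PPP1R15A (GADD34), which lets translation resume after stress by directing a phosphatase to eIF2 alpha, stood at 39.2, 39.0 and 36.6 FPKM against 48.0, 46.4 and 44.4 FPKM (limma adjusted p = 0.00618). MAFF, a small MAF transcription factor, fell by 0.29 on the log2 scale. JUNB is less even: it measured 15.2, 21.3 and 16.6 FPKM against 23.5, 21.4 and 22.9 FPKM, so replicate 2 nearly met the other mixture. CTGF and ANKRD1, also YAP targets, had log2 differences of 0.02 and 0.04 and overlapping groups, so among the YAP and TEAD targets CYR61 and GADD45B fell, AJUBA rose by 0.21, and the other 12 of 15 did not pass. With the trend removed JUNB and AJUBA did not pass, and the other named genes here that fell did.

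**Figure D3:**
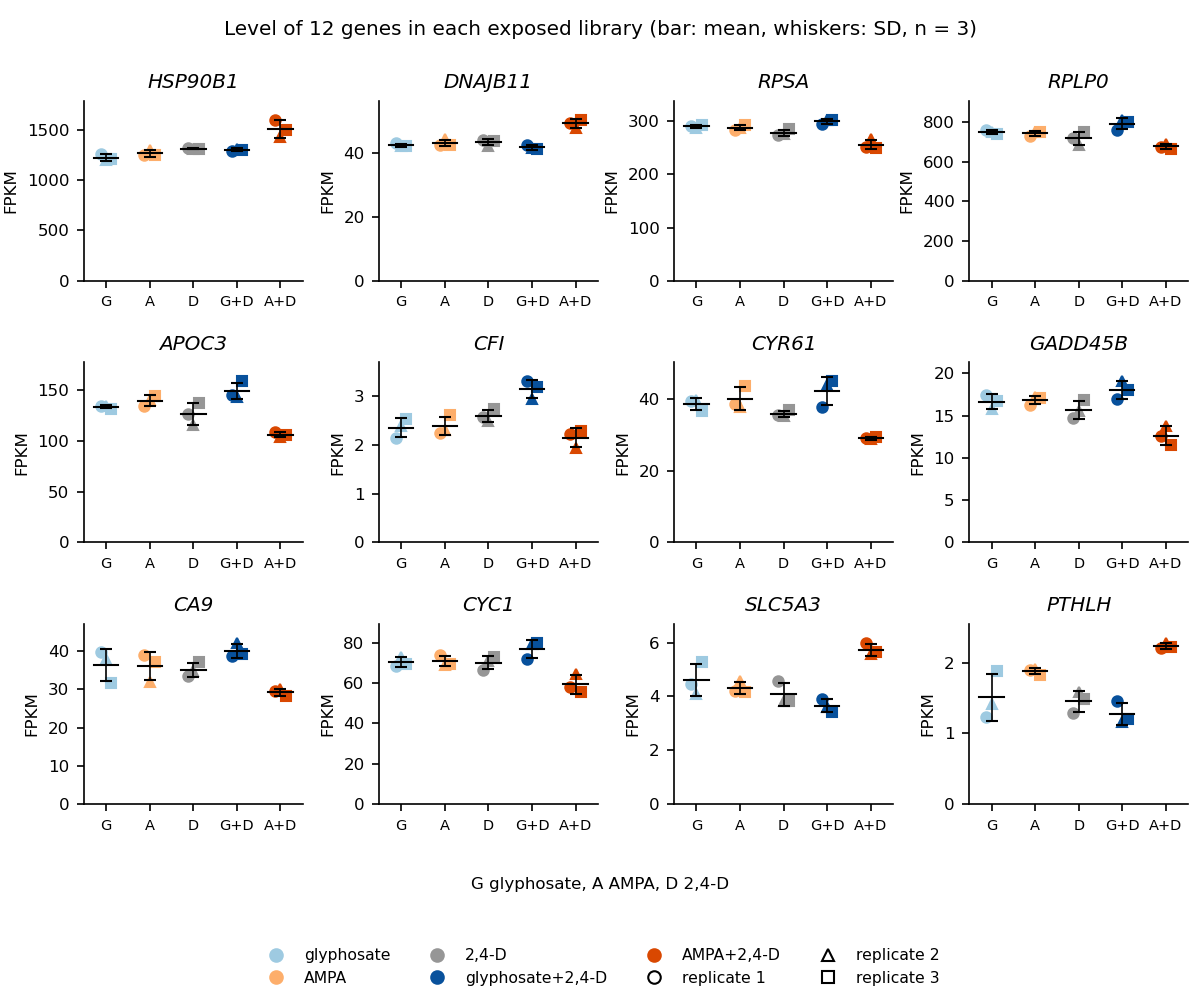
Level of 12 genes in FPKM in each of the 15 exposed libraries (G glyphosate, A AMPA, D 2,4-D, and the 2 mixtures), with bars for the mean and whiskers for the SD of 3 libraries on axes that start at 0. HSP90B1, DNAJB11, SLC5A3 and PTHLH are higher in AMPA+2,4-D than in glyphosate+2,4-D, and the other 8 genes are lower, without overlap between the mixtures in any of the 12.

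Actin cytoskeleton genes and targets of serum response factor were lower in 27 of 28 cases, with a median of −0.11 and 4 that fell (2.37% of all genes did). None of the list passed without AMPA+2,4-D replicate 1 or without replicate 3. ACTB, cytoplasmic actin, measured 230, 229 and 231 FPKM against 254, 269 and 250 FPKM (limma adjusted p = 0.0307), and ACTG1 fell by 0.14 on the log2 scale. The actin-binding protein TAGLN stood at 5.46, 5.74 and 5.89 FPKM against 6.95, 7.33 and 6.60 FPKM (limma adjusted p = 0.025), and the keratin KRT8 fell by 0.18. All 4 were separate between the mixtures. The genes of this list had a median GC content of 57.6%, above the 49.2% of all genes, and none of the 4 passed with the length and GC trend removed, where the list's median was −0.08.

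Genes of glycolysis and the response to low oxygen fell in 6 of 34 cases (2.37% of all genes did) and rose in none, with 27 negative members and a median of −0.08. CA9, a carbonic anhydrase induced by low oxygen, measured 29.5, 30.0 and 28.3 FPKM against 38.8, 42.1 and 39.3 FPKM (log2 difference −0.44, SE 0.082, limma adjusted p = 0.0160). The glycolytic enzyme GAPDH stood at 1053, 1071 and 1086 FPKM against 1255, 1368 and 1288 FPKM (log2 difference −0.28, limma adjusted p = 0.0185). TPI1, PFKL and ALDOA, also of glycolysis, and ADM, a vasodilator peptide, fell by 0.32, 0.33, 0.29 and 0.24 on the log2 scale. In CA9 and GAPDH the mixtures did not overlap, although 2,4-D alone replicate 2 had 1091 FPKM of GAPDH, close to the AMPA+2,4-D libraries. With the trend removed 1 of the 6 passed, PFKL, and 1 gene of the list passed without AMPA+2,4-D replicate 1 or without replicate 3.

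Nuclear genes of oxidative phosphorylation, which encode respiratory chain subunits, were negative in 46 of 52 cases, with a median of −0.09, or −0.13 for replicate 2 alone. The 5 that fell (2.37% of all genes did) were CYC1, COX8A, UQCRC1, NDUFB11 and NDUFV1. CYC1 and COX8A also passed with the trend removed, and the list had 1 call without AMPA+2,4-D replicate 1 or without replicate 3. CYC1, cytochrome c1 of complex III, measured 57.8, 64.7 and 55.5 FPKM against 71.8, 79.2 and 79.8 FPKM (log2 difference −0.37, SE 0.059, limma adjusted p = 0.00970). COX8A, a small subunit of complex IV, stood at 79.1, 96.4 and 80.5 FPKM against 108, 110 and 119 FPKM, with replicate 2 nearest to the other mixture (limma adjusted p = 0.0167). Of the 15 genes encoded by mitochondrial DNA, MT-ATP8, a subunit of ATP synthase (chrMT:8366-8572), was the only one that rose, and it did not pass with the trend removed. Its 435, 309 and 485 FPKM exceeded the 207, 240.7 and 278 FPKM of glyphosate+2,4-D (log2 difference 0.74, SE 0.167, limma adjusted p = 0.0313), and replicate 2 alone gave 0.36. The reading frame of MT-ATP8 overlaps that of MT-ATP6, so reads in the overlap cannot be assigned to either with certainty. MT-ND6, the protein gene on the light strand, had the lowest difference of the 15, with 163, 405 and 156 FPKM against 391, 345 and 443 FPKM. Only replicates 1 and 3 of AMPA+2,4-D were low there, and the log2 difference of −0.84 did not pass (limma adjusted p = 0.0822). The median of the mitochondrial list was 0.10 over all libraries and −0.01 for replicate 2 alone. Mitochondrial genes took 24.2, 21.9 and 23.97% of the summed FPKM in AMPA+2,4-D and 20.8 to 22.9% in glyphosate+2,4-D, and the part of this share in the results was not tested.

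In fatty acid and triglyceride synthesis 4 of 23 genes fell, against 2.37% of all genes (AGPAT2, DGAT1, ACSS2 and the transcription factor SREBF1), and LPIN2, a phosphatidate phosphatase, rose by 0.17. AGPAT2, which makes phosphatidic acid, measured 14.4, 17.3 and 16.9 FPKM against 21.7, 21.2 and 20.04 FPKM (log2 difference −0.36, limma adjusted p = 0.0143). In cholesterol synthesis 4 of 23 fell, the enzymes DHCR7, FDPS, FDFT1 and EBP, by 0.33, 0.23, 0.21 and 0.20, while the list's median was 0.00 (−0.06 with the trend removed) and 12 members were positive. FABP1, the fatty acid carrier of hepatocytes and a target of PPAR alpha, stood at 46.8, 54.7 and 45.7 FPKM against 61.5, 69.7 and 71.2 FPKM (log2 difference −0.45, limma adjusted p = 0.0289). Its groups were separate, but 2,4-D alone replicate 2 was at 50.9 FPKM, within the range of AMPA+2,4-D. ACSL1, which activates fatty acids, rose by 0.20, and ACAA1, a peroxisomal thiolase, fell by 0.19. Of the genes named here ACSS2, FDFT1 and FABP1 passed with the trend removed, and the others did not. Without AMPA+2,4-D replicate 1 the synthesis list had 1 call and the cholesterol list 0, and without replicate 3 they had 2 and 0.

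In amino acid breakdown 3 of 22 genes fell (2.37% of all genes did) and 1 rose (1.91%). HPD, a dioxygenase of tyrosine breakdown (chr12:121839527-121863596), measured 155, 154 and 154 FPKM against 175, 191 and 187 FPKM (log2 difference −0.26, SE 0.039, limma adjusted p = 0.00902). FAH, the last enzyme of that pathway, fell by 0.20. AGXT, which detoxifies glyoxylate in peroxisomes, stood at 6.97, 7.13 and 6.68 FPKM against 9.38, 9.24 and 9.96 FPKM (limma adjusted p = 0.0137). KYNU, of tryptophan breakdown, rose by 0.19. For AGXT the glyphosate+2,4-D libraries were the highest of the exposed ones, and neither HPD nor AGXT overlapped between the mixtures. Replicate 2 alone gave −0.26 for HPD and −0.37 for AGXT. Both passed with the trend removed, while FAH and KYNU did not. Without AMPA+2,4-D replicate 3 the list had 1 call.

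Single members passed in the lists of xenobiotic metabolism. Of 14 cytochrome P450 genes and receptor targets only CYP2B6, a target of the nuclear receptor CAR, rose (1.91% of all genes did), with 18.5, 20.04 and 18.5 FPKM against 15.9, 15.3 and 16.7 FPKM. The mixtures did not overlap (log2 difference 0.24, SE 0.046, limma adjusted p = 0.0185), replicate 2 alone gave 0.31, and 2,4-D alone had 18.7, 17.1 and 18.5 FPKM, which overlaps AMPA+2,4-D. CYP1A1, the classical target of the aryl hydrocarbon receptor, had a log2 difference of −0.07 (limma adjusted p = 0.764) and overlapping groups. Among 20 conjugation enzymes the sulphotransferase SULT1A1 fell (2.37% of all genes did), with 14.4, 14.3 and 13.8 FPKM against 16.2, 16.9 and 17.5 FPKM (limma adjusted p = 0.00970). It has close paralogs that can share reads. HMOX1, a target of NRF2 in oxidative stress, had −0.04 (limma adjusted p = 0.736), and the NRF2 list held 2 of 26 genes that fell, TKT and TALDO1, both of the pentose phosphate pathway. With the trend removed CYP2B6, SULT1A1 and TKT passed and TALDO1 did not. CYP2B6 did not pass without AMPA+2,4-D replicate 3, and the NRF2 list had no call without replicate 1 or without replicate 3. Of the p53 targets none of 22 passed, CDKN1A included (−0.11, limma adjusted p = 0.137). HSPA6, a heat-inducible chaperone, and IGFBP3 did not pass either, with −0.20 and 0.04.

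Cell cycle and replication genes were negative in 37 of 41 cases with a median of −0.09, and the 2 that fell (2.37% of all genes did) were subunits of the replicative helicase. MCM5 measured 4.74, 4.67 and 4.37 FPKM against 5.69, 6.14 and 5.66 FPKM (log2 difference −0.29, limma adjusted p = 0.00949), and MCM2 fell by 0.26. Of the NF-kB list 13 of 14 were negative and NFKB2, a subunit of the noncanonical pathway, fell, with 7.09, 7.43 and 7.61 FPKM against 9.05, 9.03 and 8.82 FPKM (limma adjusted p = 0.00849). IGF2, a fetal growth factor of liver tumours, stood at 19.7, 27.3 and 21.6 FPKM against 31.5, 32.9 and 28.4 FPKM, and replicate 2 was close to the lowest glyphosate+2,4-D library (limma adjusted p = 0.0289). Its binding protein IGFBP2 fell by 0.43. The transcription factors CEBPD and NR1H3 fell by 0.44 and 0.32, and HAMP, the iron hormone hepcidin, by 0.34. CEBPD and NR1H3 were the only 2 of 25 hepatocyte transcription factors that passed (2.37% of all genes fell). The median of that list was 0.04, and 13 members were positive. In 9 of them the AMPA+2,4-D libraries all lay above the other mixture (12.7% of all genes), and in 2 below (12.2%). MCM5, NFKB2 and IGF2 passed with the trend removed, and MCM2, IGFBP2, CEBPD, NR1H3 and HAMP did not. Replicate 2 alone gave −0.27 for MCM5, −0.24 for NFKB2 and −0.17 for IGF2. No member passed among the 29 proteasome subunits, 22 p53 targets, 15 circadian clock genes, 14 WNT antagonists and beta-catenin targets or 8 replication-dependent histones. DKK1, a secreted WNT antagonist, was nonetheless separate between the mixtures, with 33.8, 35.5 and 37.6 FPKM against 28.8, 27.9 and 27.5 FPKM (log2 difference 0.33, limma adjusted p = 0.0907). Over the 40 lists together 97 of 932 genes passed, 20 higher and 77 lower. Of all genes tested 4.28% passed, 1.91% higher and 2.37% lower. With the trend removed 38 list genes passed.

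The protein-coding genes with the largest increases, among those that passed without overlap between the mixtures, included several of low expression. SLC5A3, a sodium-coupled carrier of myo-inositol (chr21:34073570-34106262), measured 5.99, 5.56 and 5.64 FPKM in AMPA+2,4-D and 3.92, 3.61 and 3.43 FPKM in glyphosate+2,4-D. All 3 AMPA+2,4-D libraries exceeded the other 12 exposed ones, and the log2 difference was 0.53 (SE 0.078, limma adjusted p = 0.00802), or 0.50 for replicate 2 alone. PTHLH, parathyroid hormone-related protein, stood at 2.20, 2.28 and 2.22 FPKM against 1.45, 1.16 and 1.20 FPKM (log2 difference 0.51, limma adjusted p = 0.0137). PDGFRB, a growth factor receptor that is also the 1 fibroblast marker present, measured 2.78, 2.50 and 2.66 FPKM against 1.76, 1.59 and 1.70 FPKM (limma adjusted p = 0.0230). MPHOSPH10, a component of the complex that processes ribosomal RNA (chr2:71130314-71150101), stood at 20.96, 18.8 and 18.8 FPKM against 14.8, 14.2 and 15.2 FPKM. Its log2 difference was 0.38 (SE 0.046, limma adjusted p = 0.00410), again with no overlap. SPTSSB, a subunit of serine palmitoyltransferase, HES1, a Notch target, the integrin ITGA10, ZNF253 and RAB17 rose by 0.59, 0.37, 0.44, 0.38 and 0.35 on the log2 scale. Of the genes in this paragraph SPTSSB, HES1, ZNF253 and RAB17 did not pass with the trend removed.

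The largest decreases by the same rule were those of TOMM7, MT1G, CKB, CYR61, SNCG, APOC3, GADD45B, ZDHHC12, FABP1 and HCFC1R1. CKB, brain-type creatine kinase (chr14:103519659-103523111), measured 23.4, 29.5 and 25.6 FPKM against 37.3, 40.2 and 37.7 FPKM. Its groups were far apart relative to their spread (log2 difference −0.54, SE 0.084, limma adjusted p = 0.00960), and replicate 2 alone gave −0.37. MT1G, a zinc-binding metallothionein with near-identical paralogs, stood at 4.16, 3.77 and 3.33 FPKM against 6.03, 7.27 and 5.49 FPKM (log2 difference −0.61, limma adjusted p = 0.0263). TOMM7, a small subunit of the mitochondrial import pore, measured 16.2, 27.5 and 15.2 FPKM against 29.2, 30.4 and 30.3 FPKM. Nearly all of its difference of −0.63 came from replicates 1 and 3, since replicate 2 alone gave −0.12 (limma adjusted p = 0.0493 over all 3). With the trend removed TOMM7, MT1G, SNCG, ZDHHC12 and HCFC1R1 did not pass.

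**Figure D4:**
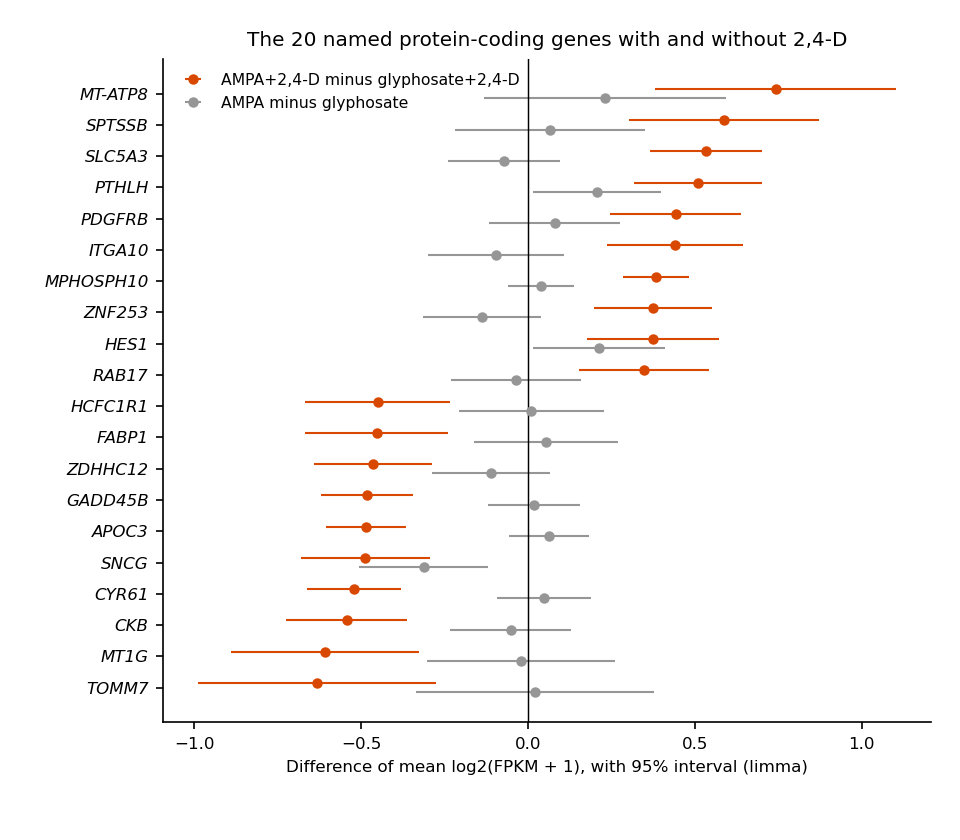
Difference in mean log2(FPKM + 1), AMPA minus glyphosate, for the 10 protein-coding genes with the largest increases and the 10 with the largest decreases between the mixtures, with limma's 95% interval, in the presence of 2,4-D (orange) and without it (grey). The genes were chosen on the orange values, so their distance from 0 is a description. Without 2,4-D the intervals span 0 for all but PTHLH, HES1 and SNCG.

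All 11 genes that passed with a difference of 2-fold or more were short noncoding ones: 6 antisense RNAs, 2 processed pseudogenes, 2 miRNA genes and 1 snoRNA, each with 0 to 119 reads in a mixture library. MIR578, SNRPGP14 and SNORD71 were under 1 FPKM in every library of the lower mixture and met the entry rule only through the higher one, so their differences are in part set by that rule. Of 522 antisense genes tested 15 fell and 3 rose, a share of 3.45% that passed, below the 4.28% of all genes. As a class they had a median log2 difference of −0.19. That shift was present in AMPA+2,4-D replicates 1 and 3, with medians of −0.25 and −0.29, and absent in replicate 2, with 0.06. AL354733.3, an antisense RNA on chromosome 9, showed this most, with 1.16, 14.99 and 0.569 FPKM against 18.1, 14.6 and 20.6 FPKM. Replicate 2 lay inside the range of the other mixture. The strand setting of the counting is not given in the sources used here, so reads of an antisense gene and of its partner may not have been told apart.

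When each of the 6 mixture libraries was left out in turn, 42 of the 516 genes passed in all 6 fits, 11 higher and 31 lower, and 37 of the 42 also passed with the length and GC trend removed. The 11 that rose included DNAJB11, MPHOSPH10, SLC5A3, SLC38A2, a neutral amino acid transporter, GK, glycerol kinase, PAK1IP1 and MMD. SLC38A2 had 507 ± 14.4 FPKM (SD, n = 3) in AMPA+2,4-D and 423 ± 8.61 FPKM in glyphosate+2,4-D. Among the 31 that fell were APOC3, CYR61, GADD45B, PPP1R15A, CKB, CFI, RPSA, CYC1, NDUFA4L2, IDH2, HPD, SULT1A1, MCM5, NFKB2 and TUFM. NDUFA4L2, a mitochondrial protein induced by low oxygen, measured 19.6, 19.5 and 19.9 FPKM against 24.6, 25.6 and 25.6 FPKM (log2 difference −0.35, SE 0.039, limma adjusted p = 0.00393). IDH2, the NADP-dependent isocitrate dehydrogenase of mitochondria, had 24.01 ± 0.609 FPKM (SD, n = 3) against 30.7 ± 1.45 FPKM (log2 difference −0.34, limma adjusted p = 0.00393). In both genes the mixtures were separate. At the other end, 28 of the 516 passed in none of the 6 fits and 246 in 1.

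Without 2,4-D, AMPA against glyphosate gave no gene of 12046 past limma's threshold (0%), 573 with an unadjusted p under 0.05 and a smallest adjusted p of 0.640; voom on recovered reads also called 0. In that comparison 11.2% of genes had groups that did not overlap. The median half-width of a gene's 95% interval was 0.148 on the log2 scale in both comparisons, so differences under that size could have been missed in either. Larger ones could be missed too, because the threshold is on the adjusted p. Without 2,4-D MBIP did not pass at −0.34 (limma adjusted p = 0.640). The difference between the 2 comparisons was tested as an interaction, and no gene passed in limma (0%), with 1616 at an unadjusted p under 0.05, a smallest adjusted p of 0.0673 and an interval half-width of 0.209; voom called 147. The 3 genes each way with the smallest interaction p were APOC3, NDUFA4L2 and SLC13A5 on the lower side, at −0.55, −0.37 and −0.43, and MBIP, SELENOI and SLC5A3 on the higher side, at 0.49, 0.28 and 0.60, each with a limma adjusted p of 0.0673. SLC13A5, a citrate carrier, measured 8.49, 8.57 and 8.13 FPKM against 9.28, 10.2 and 10.6 FPKM in the mixtures, and 10.6, 9.72 and 10.3 FPKM with AMPA against 8.73, 8.97 and 8.56 FPKM with glyphosate. Its order was opposite with and without 2,4-D, and the libraries did not overlap in either. MBIP, a regulator of stress kinases and of a histone acetyltransferase complex, stood at 3.64, 3.68 and 3.85 FPKM with AMPA and 4.82, 4.83 and 5.31 FPKM with glyphosate. With 2,4-D it overlapped, at 5.12, 5.17 and 5.60 FPKM against 4.28, 5.28 and 4.49 FPKM. SELENOI, an enzyme of phosphatidylethanolamine synthesis, was at 15.5, 14.3 and 14.7 FPKM against 13.1, 13.2 and 13.1 FPKM in the mixtures. It was the reverse without 2,4-D, at 12.3, 12.3 and 11.7 FPKM with AMPA and 13.5, 13.3 and 12.9 FPKM with glyphosate. These genes were selected for their interaction, so the values are a description.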

How the data were processed

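RNA from C3A cells was sequenced after SMARTer library preparation, per the labels' protocols. The authors aligned reads with HISAT2 2.0.5 and counted them with featureCounts 1.5.0-p3 on GRCh38 (hg38), per the submitters' processing notes, and deposited 1 table of FPKM values per exposure. Strand setting and the FPKM scaling total are not given in the sources used here. FPKM times gene length gave whole reads, within 0.1 read, for 100% of genes.

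Tables were joined on gene ID. log2(FPKM + 1) was fitted with limma 3.58.1 (R 4.3.3), with a mean per group over the 15 exposed libraries and a trended prior, and p-values were adjusted by Benjamini-Hochberg over all 12048 genes. Genes passed at an adjusted p under 0.05. Unexposed libraries were left out of this fit, and their values are given only for the unfolded protein response and CYR61. The members and the 40 lists were chosen with earlier results of these data known, so no list gives independent support. Genes named are the 10 protein-coding genes with the largest change each way among those that passed without overlap between groups, up to 3 members of each list with the smallest p among those that passed, the 3 each way with the smallest interaction p, and CYP1A1, CYP2B6, HMOX1, CDKN1A, HSPA6, DKK1, IGFBP3 and ALB; the other genes named were chosen after their values were seen. The comparison without 2,4-D used 12046 genes, since 2 members are not listed in the glyphosate table. Alternatives were other pseudocounts, filters and scalings, other sets of libraries, limma's array weights, voom on recovered reads, and removal of a length and GC trend. The code was tested on simulated data. GC content was a gene's mean over its GENCODE transcripts, weighted by their length, and promoters came from RefSeq (GRCh38.p14).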

Additional observations from a re-analysis of the deposited data

How the results depend on the processing

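Between the mixtures 516 genes passed, 97 of them in the lists. The count was 505 with a pseudocount of 0.1, 538 with median-of-ratios scaling and 462 with the filter over all 21 libraries. It moved to 248 (lists 41) with no filter on low values, 245 (52) in TPM and 315 in TPM over the same genes, 49 (9) over all 21 libraries, 1010 (147) with limma arrayWeights and 1009 (188) with voom on recovered reads. It was 0 (0) for the compared libraries alone and 163 (38) with the length and GC trend removed. Without AMPA+2,4-D replicates 1 and 3 it was 0 (0). Leaving out 1 library each time gave 58 to 1294 genes (lists 17 to 148): 91 without AMPA+2,4-D replicate 1, 1294 without its replicate 2, 58 without its replicate 3, and 213, 119 and 89 without glyphosate+2,4-D replicates 1, 2 and 3. AMPA against glyphosate stayed at 0 except for 2 genes with no filter on low values. The interaction gave 1 gene in TPM, 1 in TPM over the same genes, 1 for the compared libraries alone, 32 with arrayWeights and 147 with voom, and 0 to 257 when 1 library was left out: 257 without AMPA+2,4-D replicate 2, 9 without glyphosate+2,4-D replicate 1 and 2 without glyphosate replicate 2. The cause of these shifts was not tested. No named gene that passed changed sign under these settings. CYP1A1, HMOX1, HSPA6 and IGFBP3, which did not pass, each did so under at least 1. The trend-removed fit was chosen after seeing the data.

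Same-numbered libraries of different exposures had correlated deviations over 0.1 in 1 of 30 pairs (−0.0667 to 0.117). In 11 of 15 libraries the mean correlation with libraries of other exposures was highest for those of their own number. These values do not settle whether the numbers pair samples, and the main fit did not pair them. A fit with the replicate block called 395 genes (lists 82).

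Depth limits most the genes with few reads, such as the short noncoding ones.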
